A study of Mus musculus with 4 samples.

Results

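The annexin genes were examined in RNA-seq libraries of mouse keratinocytes (KCs), which make up most of the epidermis. The 9 members, Anxa1, Anxa2, Anxa3, Anxa4, Anxa5, Anxa6, Anxa7, Anxa8 and Anxa11, were the rows carrying these names among the 25814 genes listed in each of the 4 libraries. The list was chosen by the RPKM values of Anxa1, which had been noted as higher in the libraries labelled Nfat5-/- when these same data were read earlier. Its difference between the genotypes is therefore given as a description without a test, and the tests concern the other 8 members. The gene tables list 11 annexins in all. Anxa9 and Anxa10 were not among the members and are described briefly at their place, and Anxa13 was not analysed here.

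The study asked how NFAT5, a transcription factor that responds to osmotic stress, affects transcription in KCs, and the libraries compared wild-type (WT) with Nfat5-/- cells, 2 libraries each. All KCs came from the tails of adult 129/sv mice, the WT mice being littermates of the Nfat5-/- mice, and were grown in vitro without treatment in serum-free medium holding 0.06 mM calcium. In this medium the study saw a layer of basal KCs within days and cornification-like envelopes on prolonged culture. Per the methods of the study, the tails travelled overnight on ice before the cells were prepared, and kidney atrophy and lasting hypernatremia are described for the 129/sv mice without naming a genotype. Neither the culture time of these libraries nor the exact age of the mice is given in the sources used here, and while the study speaks of sibling mice of both genotypes, the labels do not tie a library to an animal.

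Annexins are cytosolic proteins that bind acidic phospholipids of membranes when calcium rises. They share a conserved core and differ in their N-terminal region, which docks partners such as S100 proteins or the calcium sensors ALG-2 and sorcin. In epithelia they are known for roles in membrane repair, vesicle traffic, the cortical actin network and, in the case of secreted annexin A1, the damping of inflammation.

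Depth lay between 16219445 and 23494436 gene reads per library, and the smallest level this depth can show, 3 reads, was 0.128 to 0.185 CPM, a read count scaled to the depth of the library (counting error only). The libraries of each genotype differed by more than sampling noise and were kept as separate samples. Nfat5 itself, the targeted gene (chromosome 8, positions 107293470 to 107379517, GRCm38), was read at 1.67 and 3.002 RPKM (reads per base of exon, scaled by the number mapped in each library) in WT replicates 1 and 2 and at 2.02 and 2.78 RPKM in replicates 1 and 2 labelled Nfat5-/-. These ranges overlapped, the log2 fold change was 0.09 (SE 0.26, edgeR adjusted p = 0.913), and the Nfat5 reads thus did not separate the labels. The reads are summed over the whole gene, so a deletion of some exons would not be seen. Markers of basal KCs were high in all libraries, at summed levels of 12870, 11122, 11064 and 12648 RPKM over 6 genes in the order WT replicates 1 and 2, then labelled Nfat5-/- replicates 1 and 2. Of these 6 genes 0 passed the test (edgeR), and 1, Itga6, had an unadjusted p under 0.05, against 14.6% of all tested genes. The same order of libraries is kept below.

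Of the 9 members, 7 had a promoter entry in RefSeq (GRCm38.p6), and Anxa3 and Anxa6 were not searched. An entry reaches from 250 bases before to 50 bases after the transcription start. These windows were searched on both strands for TGGAAA, the core of the NFAT5 binding sequence, and for TATAAA, the TATA box. The motifs were chosen after the data had been seen. TGGAAA was found in 3 of the 7 members (Anxa5, Anxa7 and Anxa8; 9 entries for the 7) against 21.4% of 32851 promoter entries, and TATAAA in 2 of the 7 (Anxa1 and Anxa2) against 13.6% of entries. The runs of 30 bases that hold the matches are shown because they set the most abundant annexins, whose windows hold the letters TATAAA, beside the members whose windows hold TGGAAA. Each is read 5′ to 3′ on the strand of its gene, with the motif in capitals. The sites lie at chr19:20390686-20390715 (minus strand, Anxa1), chr9:69453654-69453683 (plus strand, Anxa2), chr14:34085798-34085827 (plus strand, Anxa8), chr3:36476068-36476097 (minus strand, Anxa5) and chr14:20480327-20480356 (minus strand, Anxa7).
Anxa1: cagttcatatccTATAAAatcaggagtcca
Anxa2: ggatggggcgggTATAAAagccccacccag
Anxa8: gctacctcagagTTTCCAagctatgtgaca
Anxa5: aacactTGGAAAgcagtcTGGAAAaggtcc
Anxa7: gtgtatgttttcTTTCCAtgtaagtgcctc
The first base of TATAAA lay at position -32 from the RefSeq start in Anxa1 and at -17 in Anxa2. In both genes the annotated gene begins further upstream, so these runs also fall inside the annotated gene. Anxa5 held TGGAAA at -204 and again at -192. In Anxa8, at -169, and in Anxa7, at -211, the motif lay on the opposite strand and reads TTTCCA. A match is a run of letters and was not tested as a binding site.

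The 9 annexins spanned a wide range of RNA levels in these KCs, and their order was led by Anxa1 and Anxa2. On the RPKM scale, which takes exon length into account, Anxa1 ranked 25, 25, 18 and 18 among all genes, and Anxa2 ranked 28, 36, 36 and 31. Anxa1 lay above Anxa2 in 4 of 4 libraries, and the lowest Anxa1 library (1558 RPKM) was above the highest Anxa2 library (1406 RPKM). Anxa2 in turn exceeded the next member, Anxa8, by 3.61- to 4.44-fold in each library. Anxa8 and Anxa3 could not be ordered beyond their spread, as Anxa8 was higher in 3 of 4 libraries and their ratio ran from 0.982 to 1.29. Anxa5 formed a step of its own, below Anxa3 by 1.52- to 2.28-fold and above Anxa7 by 2.33- to 2.78-fold. The 4 lowest members, Anxa7, Anxa11, Anxa6 and Anxa4, overlapped from neighbour to neighbour. Within this lowest group Anxa6 was the last of the 9 in WT replicates 1 and 2, whereas it lay above Anxa4 in both libraries labelled Nfat5-/- and above Anxa7 and Anxa11 as well in replicate 2.

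**Figure D1:**
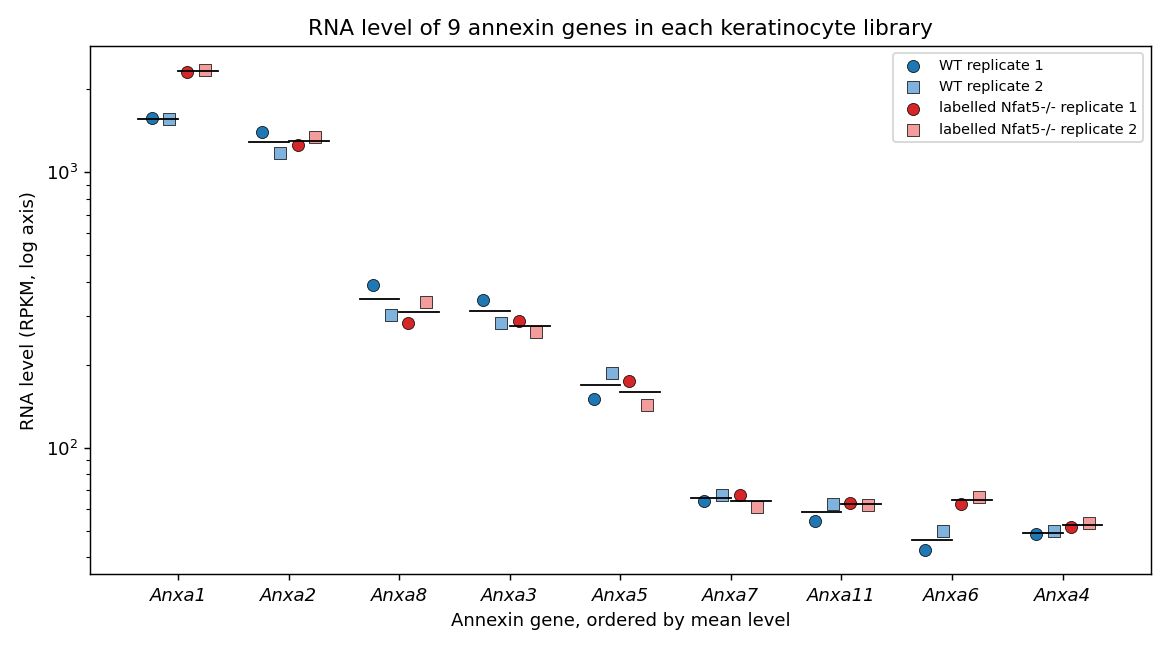
RNA level (RPKM, log axis) of the 9 annexin genes in each of the 4 libraries, with points for single libraries and bars for the mean of 2 libraries. Anxa1 stands at 1558 to 2355 RPKM and leads in every library, and the groups lie apart in Anxa1, Anxa6 and Anxa4.

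Annexin A1 is the member known as a mediator of glucocorticoid action, and it pairs with S100A11. Anxa1 (ENSMUSG00000024659) spans positions 20373428 to 20390944 of chromosome 19 on the minus strand, with 1674 exonic bases. It was read at 1569 and 1558 RPKM in the WT libraries and at 2312 and 2355 RPKM in those labelled Nfat5-/-. Both libraries labelled Nfat5-/- thus lay above both WT libraries. The means were 1564 ± 7.98 RPKM (SD, n = 2) in WT and 2334 ± 30.3 RPKM (SD, n = 2) for the pair labelled Nfat5-/-, a difference of 770.1 RPKM. This is a ratio of 1.49 in mean RPKM and a log2 fold change of 0.60 in gene reads, below the 2-fold limit by which the study listed genes. The difference was the value by which the gene was chosen. It rested on 43874 and 57984 gene reads in WT against 93410 and 75490 gene reads in the pair labelled Nfat5-/-, of which all exon reads were placed at a single site.

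Annexin A2 forms a tetramer with S100A10 and serves at the cell surface as a docking site for plasminogen and its activator. Anxa2 (ENSMUSG00000032231; chromosome 9, positions 69453620 to 69491795, plus strand) was read at 1406 and 1175 RPKM in WT against 1259 and 1341 RPKM in the pair labelled Nfat5-/-. The WT libraries enclosed the others. The means of 1291 ± 164 and 1300.4 ± 57.9 RPKM (SD, n = 2 each) differed by less than either spread, at a log2 fold change of 0.03 with SE 0.12 (edgeR adjusted p = 0.943). The 95% interval of this change ran from -0.26 to 0.31. The ratio of Anxa1 to Anxa2 was 1.12 and 1.33 in WT against 1.84 and 1.76 in the pair labelled Nfat5-/-.

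Annexin A6 is the large member, whose core is a tandem duplicate of the usual one, and it is known for work on cholesterol traffic and membrane repair. Anxa6 (ENSMUSG00000018340; chromosome 11, positions 54979108 to 55033445, minus strand) was read at 42.4 and 49.6 RPKM in WT against 62.6 and 66.4 RPKM in the pair labelled Nfat5-/-. As with Anxa1, the groups did not overlap. The means were 46.0 ± 5.11 and 64.5 ± 2.70 RPKM (SD, n = 2 each), from 1762 and 2744 gene reads in WT against 3761 and 3165 in the pair labelled Nfat5-/-. The edgeR log2 fold change was 0.51 (SE 0.12, 95% interval 0.23 to 0.78), or 1.42-fold. Among all tested genes, 13.5% had a larger change in either direction. The unadjusted p was 0.00312 and the adjusted p 0.102, so Anxa6 missed the threshold of 0.05 over all genes. DESeq2 on the same reads gave the same log2 fold change of 0.51 with an adjusted p of 0.0118, edgeR without the filter on low counts an adjusted p of 0.00184, and edgeR without WT replicate 2 a log2 fold change of 0.62 with an adjusted p of 0.0424. Over all alternatives, leaving out a library included, the log2 fold change of Anxa6 ran from 0.41 to 0.62 and its adjusted p from 0.00184 to 0.537, the latter without replicate 2 labelled Nfat5-/-.

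Markers of other cells moved with the labels beside Anxa1 and Anxa6. Of 5 smooth muscle genes, 4 were tested, and edgeR called all 4 higher (adjusted p under 0.05, against 0.943% of all tested genes). These were Acta2, Tagln, Myh11 and Cnn1 (DESeq2 called all 4 and limma-trend 3, without Myh11). Myh11 had 1 and 1 gene reads in WT, under the 3 reads that this depth can show, against 22 and 40. It passed the filter on low counts only through the libraries labelled Nfat5-/-, which fixed its direction, so its call is no support. The summed level of the list was 184 and 151 RPKM in WT against 518 and 819 RPKM in the pair labelled Nfat5-/-. Desmin (Des) was at 0 in all libraries but WT replicate 1, where it was at 0.0199 RPKM. Of 6 suprabasal KC genes 1 rose (Krtdap, by edgeR, DESeq2 and limma-trend alike) and 3 had an unadjusted edgeR p under 0.05, against 14.6% of all tested genes. Among these 3, Krt1 (7 and 8 gene reads in WT against 16 and 38) passed the filter on low counts only through the libraries labelled Nfat5-/-. Krt10 lay the other way without overlap, at 0.854 and 0.684 RPKM in WT against 0.550 and 0.520 RPKM (log2 fold change -0.49, edgeR adjusted p = 0.547). The sums of the list were 8.33, 6.60, 18.0 and 24.7 RPKM. Of 4 melanocyte genes tested of 5, 1 fell by edgeR (Tyrp1, against 0.325% of all tested genes) and 2 by DESeq2 and by limma-trend (Tyrp1 and Pmel). The log2 fold change was negative in 4 of these 4, with 3 at an unadjusted edgeR p under 0.05, against 14.6% of all tested genes. Tyr, with 9 and 11 gene reads in WT against 3 and 7, passed the filter on low counts only through WT, so its sign was fixed. Mlana was too low to test, with 6 and 8 gene reads in WT against 12 and 6, and its groups overlapped. The sums of the list were 7.29, 6.99, 2.04 and 2.89 RPKM. For fibroblasts (2 tested of 6), leukocytes (3 of 6) and endothelium (3 of 4), 0 genes passed by edgeR, DESeq2 or limma-trend and 0 had an unadjusted p under 0.05 by edgeR, and the sums stayed between 0.409 and 5.45 RPKM. The part of these markers in the annexin levels was not tested. In such bulk samples, fewer cells of a type and less RNA per cell cannot be told apart.

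The annexins with a short N-terminal region, Anxa8, Anxa3, Anxa5 and Anxa4, did not pass the test. Anxa8 (ENSMUSG00000021950; chromosome 14, positions 34085981 to 34100571, plus strand) was read at 389.9 and 304 RPKM in WT against 284 and 339 RPKM in the pair labelled Nfat5-/-. The groups overlapped, and the log2 fold change was -0.14 (SE 0.15, edgeR adjusted p = 0.743). Only 32.9% of the exon reads of Anxa8 were placed at a single site, so its level is uncertain. Reads that crossed an exon-exon border and had a single site numbered 3862 and 4171 in WT against 4307 and 4069 in the pair labelled Nfat5-/-, and gave a log2 fold change of -0.11.

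Annexin A3, whose gene (ENSMUSG00000029484) spans positions 96793339 to 96845966 of chromosome 5 on the plus strand, was read at 344 and 284 RPKM in WT against 289 and 262 RPKM in the pair labelled Nfat5-/-. The groups overlapped, and its log2 fold change was -0.17 (SE 0.12, edgeR adjusted p = 0.577), moving to -0.017 without WT replicate 1 and to -0.31 without WT replicate 2. Annexin A5, which coats phosphatidylserine on damaged and dying cells, was read from Anxa5 (ENSMUSG00000027712; chromosome 3, positions 36448923 to 36475894, minus strand) at 151 and 187 RPKM in WT against 175 and 142 RPKM in the pair labelled Nfat5-/-. The spread within each genotype was larger than the difference between their means of 169 ± 25.6 and 159 ± 23.2 RPKM (SD, n = 2 each), at a log2 fold change of -0.07 with SE 0.14 (edgeR adjusted p = 0.861). Anxa4 (ENSMUSG00000029994; chromosome 6, positions 86736840 to 86793584, minus strand), an annexin of epithelial apical membranes, showed a different picture, at 48.6 and 49.8 RPKM in WT against 51.6 and 53.3 RPKM in the pair labelled Nfat5-/-. The groups did not overlap, yet the means of 49.2 ± 0.869 and 52.4 ± 1.22 RPKM (SD, n = 2 each) differed by a ratio of only 1.07, and the log2 fold change of 0.11 (SE 0.10, 95% interval -0.12 to 0.34) had an edgeR adjusted p of 0.664.

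Anxa7 and Anxa11 encode the annexins with long N-terminal regions, which bind sorcin and ALG-2, and lie on the same chromosome. Anxa7 (ENSMUSG00000021814; chromosome 14, positions 20455260 to 20480133, minus strand) was read at 64.3 and 67.4 RPKM in WT against 67.4 and 61.0 RPKM in the pair labelled Nfat5-/-. Anxa11 (ENSMUSG00000021866; chromosome 14, positions 25842156 to 25886804, plus strand) was read at 54.2 and 62.2 RPKM in WT against 62.9 and 61.7 RPKM in the pair labelled Nfat5-/-. In both genes the groups overlapped. The log2 fold changes were -0.02 (SE 0.10, edgeR adjusted p = 0.952) for Anxa7 and 0.10 (SE 0.11, edgeR adjusted p = 0.721) for Anxa11. The latter was 0.019 without WT replicate 1 and 0.20 without WT replicate 2. For Anxa11, 58.3% of exon reads had a single site, and the annotation places an antisense gene, Anxa11os, across it, while no source used here states that reads were counted by strand. Antisense or opposite-strand genes also overlap Anxa2 (Gm16144), Anxa4 (Gm44036) and Anxa8 (A630023A22Rik, with 11, 21, 16 and 18 reads).

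**Figure D2:**
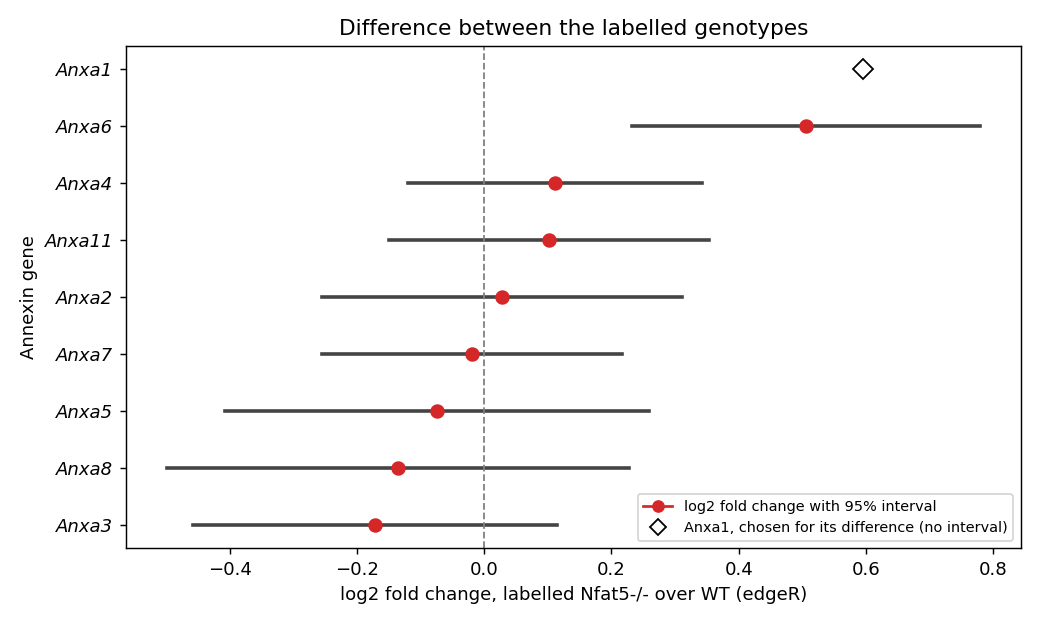
The edgeR log2 fold change (x axis, labelled Nfat5-/- over WT) of the 9 annexin genes, with bars for 95% intervals in the 8 tested members and an open symbol without interval for Anxa1, which was chosen for its difference. The interval lies above 0 in Anxa6 (0.23 to 0.78) and includes 0 in the other 7 tested members.

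Counted over the 8 members other than Anxa1, 0 passed the edgeR threshold, against 1.27% of all 12614 genes tested (0.943% rose and 0.325% fell). At an unadjusted p under 0.05 it was 1 of 8 (Anxa6), against 14.6% of all genes. DESeq2 called 1 of 8 (Anxa6) against 3.38% of genes, limma-trend on log2(RPKM + 1) 0 of 8 against 1.65%, and edgeR with the replicate number as a block 0 of 8 against 1.05%. Anxa6 was the 1 of 8 called by edgeR without the filter on low counts, against 6.3% of genes, and without WT replicate 2, against 3.7%. RPKM values of the genotypes did not overlap and were higher in the libraries labelled Nfat5-/- in 2 of 8 members (Anxa4 and Anxa6), against 21.6% of all tested genes, and they were lower without overlap in 0 of 8, against 25%. The log2 fold changes were positive in 4 and negative in 4 of these members. Their median was 0.0044 beside -0.010 over all tested genes, and the median size regardless of direction was 0.106 beside 0.159. For the 7 members other than Anxa1 and Anxa6, the 95% intervals reached no further than -0.50 and 0.35 on the log2 scale, or 0.708- and 1.28-fold.

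The annexins not among the members were weak or unread. Anxa9 (chromosome 3, positions 95296096 to 95307176) was read at 1.16 and 1.29 RPKM in WT against 1.14 and 0.935 RPKM in the pair labelled Nfat5-/-, from 47, 61, 58 and 38 gene reads. It did not pass the test, at a log2 fold change of -0.32 with SE 0.27 (edgeR adjusted p = 0.646). Anxa10 (chromosome 8, positions 62057042 to 62123150), an annexin known from the stomach, had 0 reads in 4 of 4 libraries, which allows a level of up to 0.128 to 0.185 CPM.

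The 9 members together held 0.787% and 0.721% of all gene reads in WT against 0.864% and 0.882% in the pair labelled Nfat5-/-. Summed over the family, the level was 4070 and 3737 RPKM in WT against 4564 and 4682 RPKM in the pair labelled Nfat5-/-. Without Anxa1 the sums were 2500.3 and 2178 RPKM in WT against 2252 and 2327 RPKM in the pair labelled Nfat5-/-, and the groups overlapped once Anxa1 was left out. The part of Anxa1 in the summed RPKM was 38.6% and 41.7% in WT against 50.7% and 50.3% in the pair labelled Nfat5-/-. Anxa6, despite its difference, stayed between 1.04% and 1.42% of the pool.

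**Figure D3:**
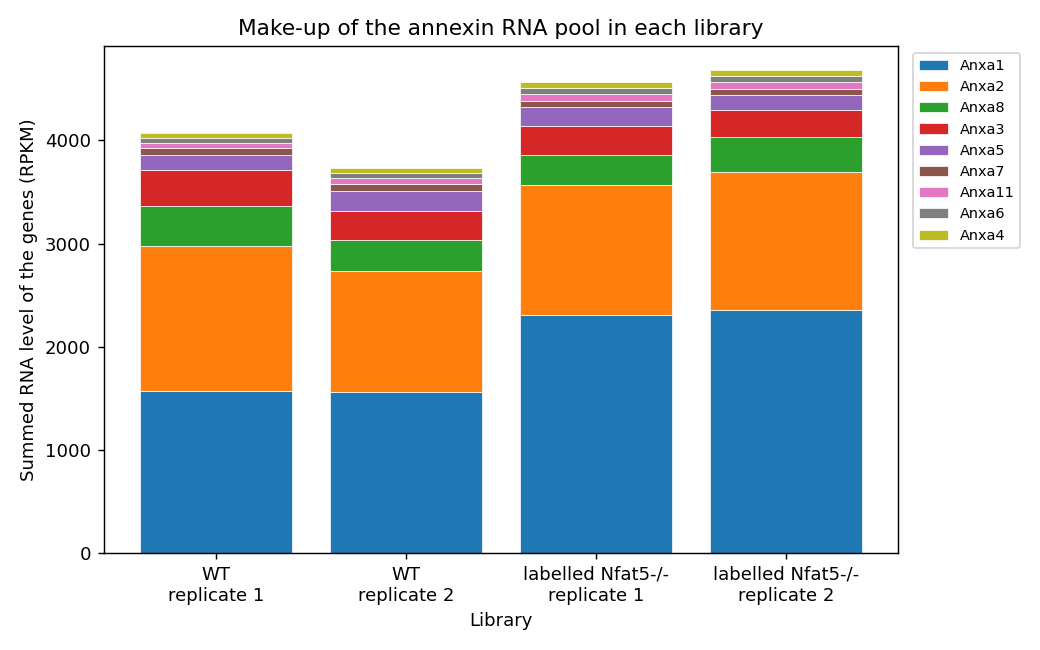
Summed RNA level (RPKM) of the 9 annexin genes in each of the 4 libraries, with 1 coloured segment per gene. The totals are 4070 and 3737 RPKM in WT against 4564 and 4682 RPKM in the pair labelled Nfat5-/-, and the segment of Anxa1 grows from 1569 and 1558 to 2312 and 2355 RPKM.

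Reads in introns, which come mostly from unspliced RNA, gave a readout counted apart from the exon reads. Anxa1 had 194 and 219 intron reads in WT, compared with 168 and 213 in the pair labelled Nfat5-/-, or 11.96, 10.1, 7.15 and 11.4 CPM of the gene reads. These levels overlapped. The sign of the fitted change turned with the scaling. The log2 fold change of Anxa1 intron reads was -0.23 (SE 0.25) when the libraries were scaled by their gene reads and 0.03 (SE 0.24) when scaled by their intron reads. The median over all 5740 genes tested this way was -0.25 on the first scale and 0.02 on the second, and Anxa1 lay within its SE of that median on both. With SEs of this size, a moderate change of the intron reads in either direction would not be seen. As a share of the reads of the gene, Anxa1 introns took 0.442% and 0.378% in WT against 0.180% and 0.282% in the pair labelled Nfat5-/-. An annotated lincRNA gene on the opposite strand, 1500015L24Rik, covers Anxa1, and its reads cannot be told from Anxa1 intron reads without strand.

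This share divides by the gene reads that chose Anxa1, so Anxa1 was left out of the counts that follow. The mean intron share was lower in the libraries labelled Nfat5-/- in 8 of 8 other members, against 71.2% of the 7943 genes with at least 20 intron reads. It was lower without overlap in 4 of 8 (Anxa2, Anxa6, Anxa8 and Anxa11), against 38.1% of these genes, and higher without overlap in 0 of 8, against 7.83%. In Anxa6 the gap was narrow, between 0.292% in WT replicate 2 and 0.284% in replicate 2 labelled Nfat5-/-, and rested on 8 and 9 intron reads. Anxa11 had the widest gap, with 2.39% and 1.91% in WT against 0.889% and 1.14% in the pair labelled Nfat5-/-. Its introns gave 60 and 73 reads in WT, compared with 37 and 37 in the pair labelled Nfat5-/-, a log2 fold change of -0.71 with an adjusted p of 0.283 (edgeR on intron reads, scaled by intron reads) or -0.98 with an adjusted p of 0.153 (scaled by gene reads). Anxa2 introns gave 240 and 271 reads in WT, compared with 177 and 181 in the pair labelled Nfat5-/-, with a log2 fold change of -0.38 and an adjusted p of 0.504 (edgeR on intron reads, scaled by intron reads) or -0.64 and an adjusted p of 0.208 (scaled by gene reads). Of 7 members tested on intron reads, 0 passed with either scaling, which called 0.0871% (by intron reads) and 0.0348% (by gene reads) of 5740 genes. At an unadjusted p under 0.05 it was 1 (Anxa11) of the 7 with scaling by intron reads, against 12.2% of these genes (5.78% in the lower direction). With scaling by gene reads it was 3 (Anxa2, Anxa8 and Anxa11), against 16.8% (14.7% in the lower direction), and all 3 had negative log2 fold changes, as did the median of all genes. Anxa6, with 7, 8, 8 and 9 intron reads, was too low to enter these fits. Over whole libraries the intron share was also slightly lower in those labelled Nfat5-/-, at 1.85% and 1.79% beside 1.97% and 1.94% in WT, and the part of this shift in the annexin shares was not tested.

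**Figure D4:**
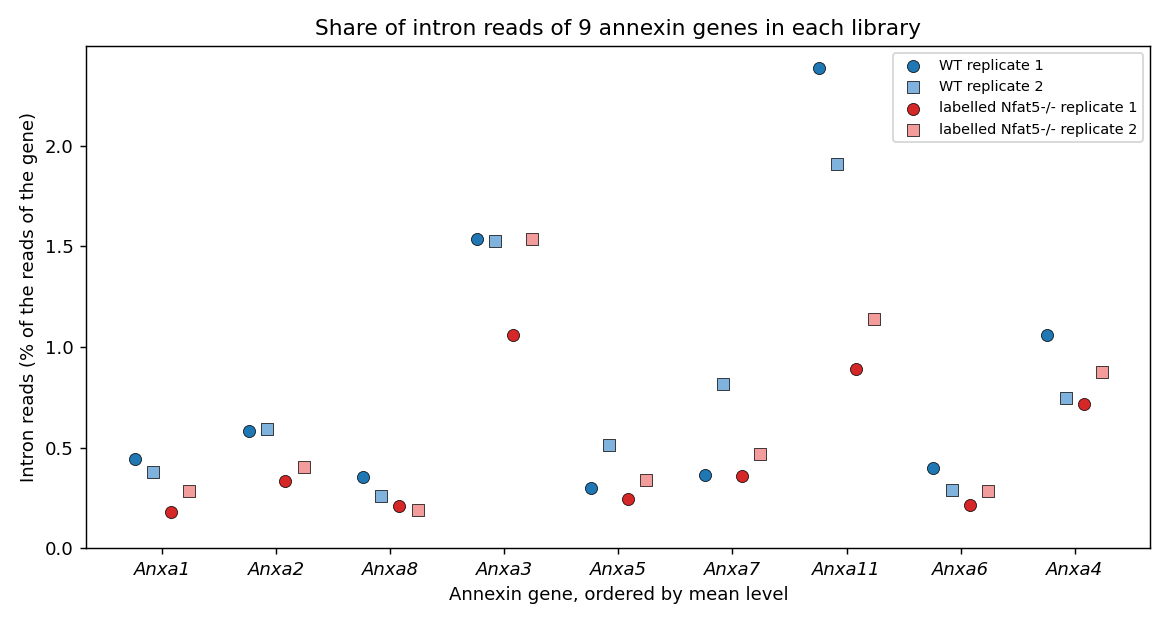
Intron reads as a percentage of the reads of each of the 9 annexin genes (y axis) in each of the 4 libraries. Anxa11 lies at 2.39% and 1.91% in WT and at 0.889% and 1.14% under the label Nfat5-/-, and the groups also lie apart in Anxa1, Anxa2, Anxa6 and Anxa8.

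Genes that encode binding partners of annexins were then read as lists. S100a11 and S100a10 lay above Anxa2 in 4 of 4 libraries. S100a11, the partner of annexin A1, was read at 3597 and 3752 RPKM in WT against 4014 and 4267 RPKM in the pair labelled Nfat5-/-. Its groups did not overlap, but its log2 fold change of 0.19 (SE 0.10) did not pass the test (edgeR adjusted p = 0.442), and 45.2% of its exon reads had a single site. S100a10, the partner of annexin A2, was read at 1930.3 and 1773 RPKM in WT against 1834 and 1795 RPKM in the pair labelled Nfat5-/-, with a log2 fold change of -0.01 (edgeR adjusted p = 0.981). S100a6 (892 to 1039.6 RPKM) and S100a4 (4.34 to 7.62 RPKM) overlapped between the genotypes, so that 0 of 4 S100 partners passed by edgeR and 0 of 4 had an unadjusted p under 0.05. The same held for 5 partners of the ALG-2 and sorcin group, whose log2 fold changes lay between -0.08 (Tsg101) and 0.10 (Sri), and for 6 tested copines, a family of calcium-dependent phospholipid binders outside the annexins.

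Of 9 genes of membrane repair, 8 were tested and 0 passed by edgeR. At an unadjusted p under 0.05 it was 2, in opposite directions, against 14.6% of all tested genes. Dysf, which encodes the repair protein dysferlin, was low and lay at 0.935 and 0.583 RPKM in WT against 1.58 and 2.11 RPKM in the pair labelled Nfat5-/- (log2 fold change 1.27, edgeR adjusted p = 0.0798). Cav1, the gene of the caveolar coat protein, lay at 264 and 219 RPKM in WT against 186 and 195 RPKM in the pair labelled Nfat5-/- (log2 fold change -0.32, edgeR adjusted p = 0.293). The calpain genes Capns1 (376 to 415 RPKM) and Capn2 (246 to 264 RPKM) did not pass. The median log2 fold change of the list was 0.03, beside -0.010 over all genes.

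Annexin A2 assists plasminogen activation, and 1 of 7 tested genes of this system passed the test, against 1.27% of all tested genes. Serpine2, which encodes the protease inhibitor nexin-1, was read at 3.85 and 3.22 RPKM in WT against 8.22 and 11.3 RPKM in the pair labelled Nfat5-/-. It rose at a log2 fold change of 1.49 with SE 0.21 (edgeR adjusted p = 0.0252), from 149 and 168 to 463 and 506 gene reads. This call was lost without replicate 1 (adjusted p = 0.0560) or replicate 2 (adjusted p = 0.151) labelled Nfat5-/-, with log2 fold changes of 1.72 and 1.22, and over all alternatives its adjusted p ran from 2.83e-14 to 0.151. Plaur, the receptor of urokinase, lay at 40.4 and 50.9 RPKM in WT against 72.7 and 70.0 RPKM in the pair labelled Nfat5-/- (log2 fold change 0.66, SE 0.13, edgeR adjusted p = 0.0647). Urokinase itself, Plau, spread from 365 to 707 RPKM within WT and enclosed the other libraries at 634 and 642 RPKM. The inhibitor gene Serpinb2 lay between 488 and 533 RPKM. Plg, the gene of plasminogen, had an RPKM of 0.0151 in replicate 1 labelled Nfat5-/- and 0 in the other libraries.

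Annexin A1 acts on formyl peptide receptors and restrains phospholipase A2. Of the receptor genes, Fpr1 and Fpr2 had 0 reads in 4 of 4 libraries. Fpr3 had 5, 7, 5 and 1 reads, all in introns and 0 in exons, so none of the 3 genes could be tested. Of 15 phospholipase A2 and prostaglandin genes, 11 were tested and 0 passed by edgeR, with 4 at an unadjusted p under 0.05, against 14.6% of all genes. In these 4 the libraries labelled Nfat5-/- lay above WT without overlap, at log2 fold changes of 0.35 for Pla2g15 (6.11 to 8.59 RPKM) and 1.36 for Pla2g4f. Ptgs1 and Pla2g4e passed the filter on low counts only through the libraries labelled Nfat5-/-, which fixed their direction. The count of 4 and its shared direction are therefore not a result about the list. Pla2g4e, Pla2g4f and Ptgs1 stayed under 0.5 RPKM in each library. Ptgs1 had 2 and 1 gene reads in WT, under the 3 reads that this depth can show, against 15 and 16 in the pair labelled Nfat5-/-. Pla2g4e had 4 and 10 gene reads in WT, of which 0 and 4 lay in exons, against 38 and 31, of which 31 and 23 lay in exons. No fold is given for Ptgs1 or Pla2g4e. The gene of the inducible cyclooxygenase, Ptgs2, was the most abundant of them at 198 and 149.8 RPKM in WT against 195 and 154 RPKM in the pair labelled Nfat5-/-, and its log2 fold change was 0.02. Ptges3 (97.9 to 126 RPKM) and Ptges (28.8 to 36.4 RPKM) did not pass either.

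Of 10 genes of glucocorticoid response, 9 were tested, 0 passed by edgeR, and 1 had an unadjusted p under 0.05, against 14.6% of all tested genes. That gene was Hsd11b1, which encodes an enzyme that activates glucocorticoids, at 6.93 and 10.9 RPKM in WT against 3.98 and 2.05 RPKM in the pair labelled Nfat5-/- (log2 fold change -1.54, edgeR adjusted p = 0.0811). It is uncertain, with 28.0% of exon reads at a single site. Sgk1, the most abundant gene of the list, lay at 78.4 and 81.9 RPKM in WT against 69.6 and 69.8 RPKM in the pair labelled Nfat5-/- (edgeR adjusted p = 0.444). The receptor gene Nr3c1 lay between 6.63 and 8.03 RPKM. The median log2 fold change of the list was -0.11, beside -0.010 over all genes. Among the tested genes of these partner lists, DESeq2 called 1 of membrane repair (Dysf), 2 of the plasminogen system (Plaur and Serpine2) and 1 of glucocorticoid response (Hsd11b1), and 0 of the S100, ALG-2 and sorcin, phospholipase A2 and copine lists, while limma-trend called 1, Serpine2.

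**Figure D5:**
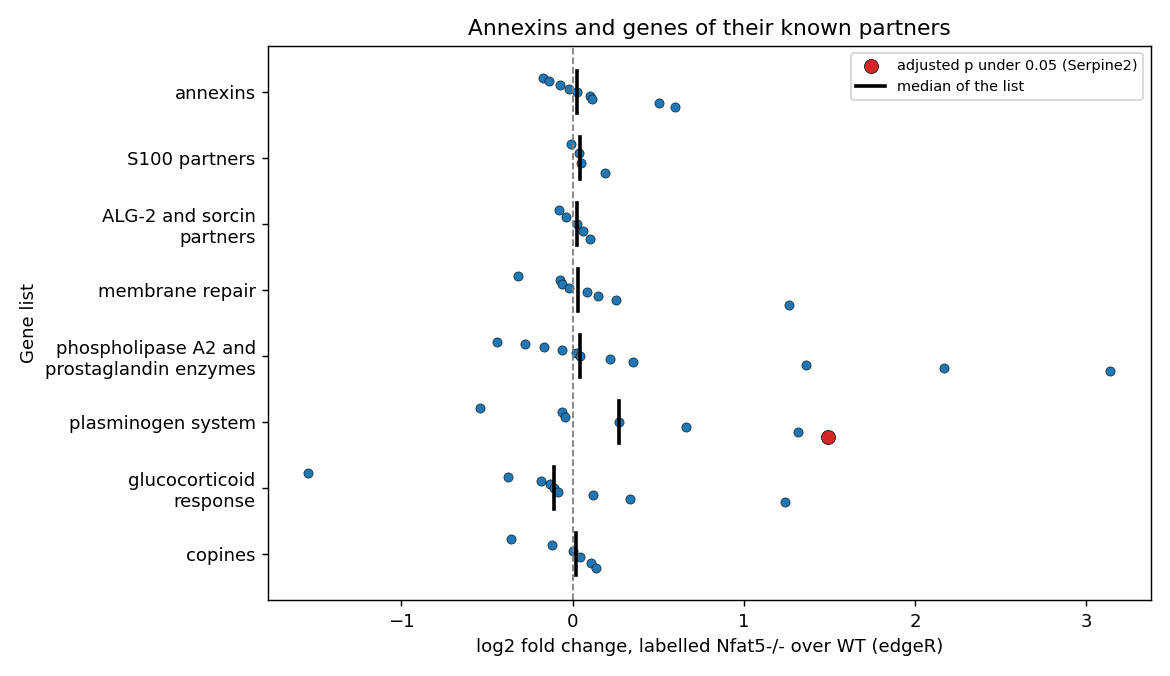
The edgeR log2 fold change (x axis, labelled Nfat5-/- over WT) of each tested gene in the annexin family and 7 partner lists (y axis), with a black bar for the median of each list and red for an adjusted p under 0.05. Serpine2 (1.49) is the red point, and the medians lie between -0.11 (glucocorticoid response) and 0.27 (plasminogen system). The point farthest to the right in the phospholipase A2 list is Ptgs1, whose fitted change rests on 2 and 1 gene reads in WT.

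The genes whose pattern was most like that of Anxa1 were sought among 40 genes with a mean RPKM from 0.5 to 2 times its own, by the distance of log2 levels, each centred on its mean over the 4 libraries. The nearest was Tmsb4x, the gene of the actin-binding peptide thymosin beta 4, at a distance of 0.161, read at 924 and 1052 RPKM in WT against 1415 and 1387 RPKM in the pair labelled Nfat5-/-. It was followed by mt-Nd3 (0.202), the actin gene Actg1 (0.359), the wound keratin gene Krt6a (0.382, with 50.5% of exon reads at a single site) and the profilin gene Pfn1 (0.464), beside a median distance of 0.592 over the 40 genes. These 4 libraries cannot tell a shared pattern from a shared difference between the labels.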

How the data were processed

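RNA-seq libraries of untreated tail KCs were grouped by genotype and replicate number from the sample titles (2 WT, 2 Nfat5-KO). Per the study's methods, polyadenylated RNA was sequenced, and the reads were trimmed and aligned to GRCm38 with the CLC Genomics Workbench at default settings. The authors deposited raw read counts per gene (whole gene, exons, introns, exon-exon borders, single-site reads) and RPKM values, in text with decimal commas. Because the software divides reads with several possible sites among them, values of genes with close copies are uncertain. Strand use is not stated.

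Gene reads of all 4 libraries were tested with edgeR 4.0.16 (R 4.3.3): filterByExpr, TMM factors, quasi-likelihood fit on genotype, two-sided, Benjamini-Hochberg adjustment over 12614 genes, threshold 0.05. Levels are RPKM. The study speaks of sibling mice, but the labels do not tie libraries to animals, so p-values measure the spread between these libraries. The procedure was tested on simulated data. Same-numbered libraries did not deviate together (correlation -0.056), so the numbers did not pair them.

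Alternatives were a replicate block, RLE factors, library totals, no filter or at least 10 counts per library, DESeq2 1.42.0, limma-trend (limma 3.58.1; log2(RPKM + 1) and log2(RPKM + 0.1), genes past the filter with at least 1 RPKM in 2 libraries), exon reads, single-site exon reads, and each library left out. Intron reads, scaled by intron or by gene reads, and single-site border reads were added after the data were seen. Members and lists were chosen with earlier results of these data known. The members were chosen by the RPKM difference noted for Anxa1. The text names all members, the other annexins, Nfat5, of each partner list the genes past the threshold and up to 4 of the most abundant, marker genes beside a result, and the 5 genes nearest to Anxa1. Dysf, Cav1, Plaur, Plg, Hsd11b1, Nr3c1, Tsg101, Sri, Itga6, Pmel, Pla2g15, Pla2g4e, Pla2g4f, Ptgs1, the Fpr genes and Des were named after their values were seen. The same holds for Krt1, Krt10, Tyr and Mlana. Motif sequences came from RefSeq tables and overlapping genes from GENCODE M21.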

Additional observations from a re-analysis of the deposited data

How the results depend on the processing

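Setting Anxa1 aside, the alternatives other than those added later gave 112 values for 8 members, of which 101 kept their direction and side of the threshold, 3 passed it (all Anxa6) and 8 turned direction. The count of these members past the threshold was 1 (Anxa6) without the filter on low counts and with DESeq2, 0 to 1 when a library was left out (1 without WT replicate 2), and 0 otherwise. Over all genes the count was 1137 without the filter, 426 with DESeq2 and 16 to 478 when a library was left out (268 and 478 without WT replicates 1 and 2, 31 and 16 without replicates 1 and 2 labelled Nfat5-/-). With the replicate block it was 132, of which 109 were shared with the 160, and the block changed no call of a member.

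When a library was left out, the log2 fold change of Anxa8 ran from -0.31 to 0.066 (positive at 0.066 without WT replicate 1 and 0.0019 without replicate 1 labelled Nfat5-/-). Without WT replicate 2 and without replicate 2 labelled Nfat5-/-, in that order, direction turned in Anxa2 (-0.098 and -0.035, range -0.098 to 0.17), Anxa5 (0.090 and 0.053, range -0.21 to 0.090) and Anxa7 (0.016 and 0.035, range -0.074 to 0.035). Direction stayed, but the size moved, in Anxa3 (-0.017 and -0.31 without WT replicates 1 and 2), Anxa11 (0.019 and 0.20 without the same libraries) and Anxa4 (0.070 without replicate 2 and 0.15 without replicate 1 labelled Nfat5-/-). With intron reads Anxa2 was at -0.38 and Anxa11 at -0.71, and with intron reads scaled by the gene reads, where the median of all genes was -0.25, Anxa1 was at -0.23, Anxa2 at -0.64, Anxa4 at -0.055 and Anxa11 at -0.98. The causes were not tested. The log2 fold change of Anxa1 was 0.56 to 0.63 over the alternatives other than intron reads (0.03 or -0.23 by scaling). A library left alone in its group was assumed to vary like the others.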
